A study of Mus musculus with 4 samples.

Results

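Podocytes are the epithelial cells that wrap the capillaries of the kidney glomerulus, and 8 genes of these cells were followed here in kidneys of mice given vancomycin or saline. The genes were Nphs1, Podxl, Synpo, Wt1, Ptpro, Clic5, Cdkn1c and Magi2. They were taken by gene name from the array files, by a rule that did not use their measured values. Earlier results of these data were known when they were chosen. They had 21 probes of 56605 on the array. All 8 were measured and stand among 24640 gene entries kept. The animals were mice of the outbred ICR strain with no genetic change named in the labels. They had received vancomycin at zeitgeber time 2 (ZT2, in hours after lights on), saline at ZT2, vancomycin at ZT14 or saline at ZT14, and the kidney was taken 1 day after the injection. Vancomycin is a glycopeptide antibiotic with known kidney toxicity at high exposure. With a single array per group, 1 in each, nothing was replicated, and it is not stated in the labels if RNA came from a single mouse or from a pool.

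Podocytes end in interlocking foot processes, and the gap between them is bridged by the slit diaphragm, a cell junction that takes part in keeping protein out of the urine. Nephrin, the product of Nphs1, spans this gap, and scaffold and adaptor proteins tie it to the actin of the foot process. Podocytes are a small share of the cells of a whole kidney. In such bulk RNA, fewer podocytes and less RNA per podocyte cannot be told apart.

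The probes matter to what follows, because 2 probes of a single gene at times gave opposite differences. The probe set against each gene name below is the brightest of its gene and represents it. The last 30 of its 60 bases are shown 5′ to 3′ as the array files give them, with any AATAAA, the common polyadenylation signal, in capitals. The second Nphs1 probe and the second Clic5 probe are shown because their values departed from those of the first. The capitals show that the first Nphs1 probe holds this sequence. Whether it is used as a signal there was not analysed. The second Nphs1 probe spans 220 bases of genome for its 60 bases.
Nphs1, first probe, chr7:31273569-31273628, plus strand: gtgtatgccacacaaAATAAATAAAatgta
Nphs1, second probe, chr7:31266833-31267052, plus strand: tactactccatgagggacttcagtccccag
Podxl, chr6:31470405-31470464, minus strand: cttgtactactttcagagagtaaacttggg
Wt1, chr2:105013656-105013715, plus strand: atcttacagtgtattgatgataatactaaa
Ptpro, chr6:137411402-137411461, plus strand: gtttatttttctctgtgtccacctgtgtac
Clic5, first probe, chr17:44416979-44417038, plus strand: ctacataccaagtcaagtgttttctactta
Clic5, second probe, chr17:44388521-44388580, plus strand: tgtaaaaaagctgatcattagctgcaccgt
Cdkn1c, chr7:150644297-150644356, minus strand: gaaatggttcctgtactgcccataccaact
Magi2, chr5:20208674-20208733, plus strand: atcacagagagacagtgcagtgtagcttta
Coordinates are in mm9, the build the file headers name. The Synpo probe is given by position only, where that gene is described. Whether a probe lies in coding or untranslated sequence was not analysed here.

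Between 60.6% and 64.7% of the spots of an array were well above background, and 0 were saturated. Of the 21 member probes, 15 were well above background on all 4 arrays, 1 on 1 array and 5 on none. The ZT14 and ZT2 arrays lay on different slides, and on each slide vancomycin and saline had the same positions. Injection time and slide therefore cannot be told apart, nor can treatment and position. Signals are given as a percentage of each array's 75th percentile, which is called the scaled signal. Differences are in log2 units of the scaled signal. The spread between repeated spots on an array, carried to a difference of 2 arrays, was 0.063 log2 units. It is technical and does not measure the spread between animals.

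With vancomycin 0 of the 8 genes differed by 2-fold at either time. At ZT2, 956 of 21244 genes well above background on both arrays, 4.5%, differed by 2-fold or more. At ZT14 this was 791 of 22269 genes, 3.55%, so a count of 0 of 8 lies near the background at both times. The members had a median of -0.04 at ZT2, with 4 above and 4 below 0, against 0.004 over all genes. At ZT14 the median was 0.21, with 5 above and 3 below 0, against 0.02 over all genes. The median size of the difference without its sign was 0.21 at ZT2, against 0.20 over all genes, and 0.40 at ZT14, against 0.18. These sizes are of the brightest probes, and the size at ZT14 depends on that rule, as the values below show. Synpo and Cdkn1c were higher with vancomycin at both times, Magi2 was lower at both, and the other 5 had opposite signs, as had 42.8% of genes well above background on all 4 arrays. On the brightest probe, 29.9% of that gene set were higher at both times and 27.3% lower. With the mean over the kept probes of a gene in place of the brightest, 3 of 8 had opposite signs, against 42.8% of genes. These were Podxl, Wt1 and Ptpro, while 4 members were higher at both times and 1 was lower. Nphs1 then had 0.01 at ZT2 and 0.04 at ZT14, and Clic5 0.06 and 0.10. At ZT14 Synpo then had 0.17 in place of 0.43, Wt1 0.17 in place of 0.31, and Magi2 -0.38 in place of -0.17. Podxl, Ptpro and Cdkn1c stayed the same, and the members' median at ZT14 was 0.14. Over the 2 times the 8 genes did not share a direction under either rule. At ZT14 alone, with the mean over probes, only Magi2 was below 0. The plot of levels by array shows the single probes.

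**Figure D1:**
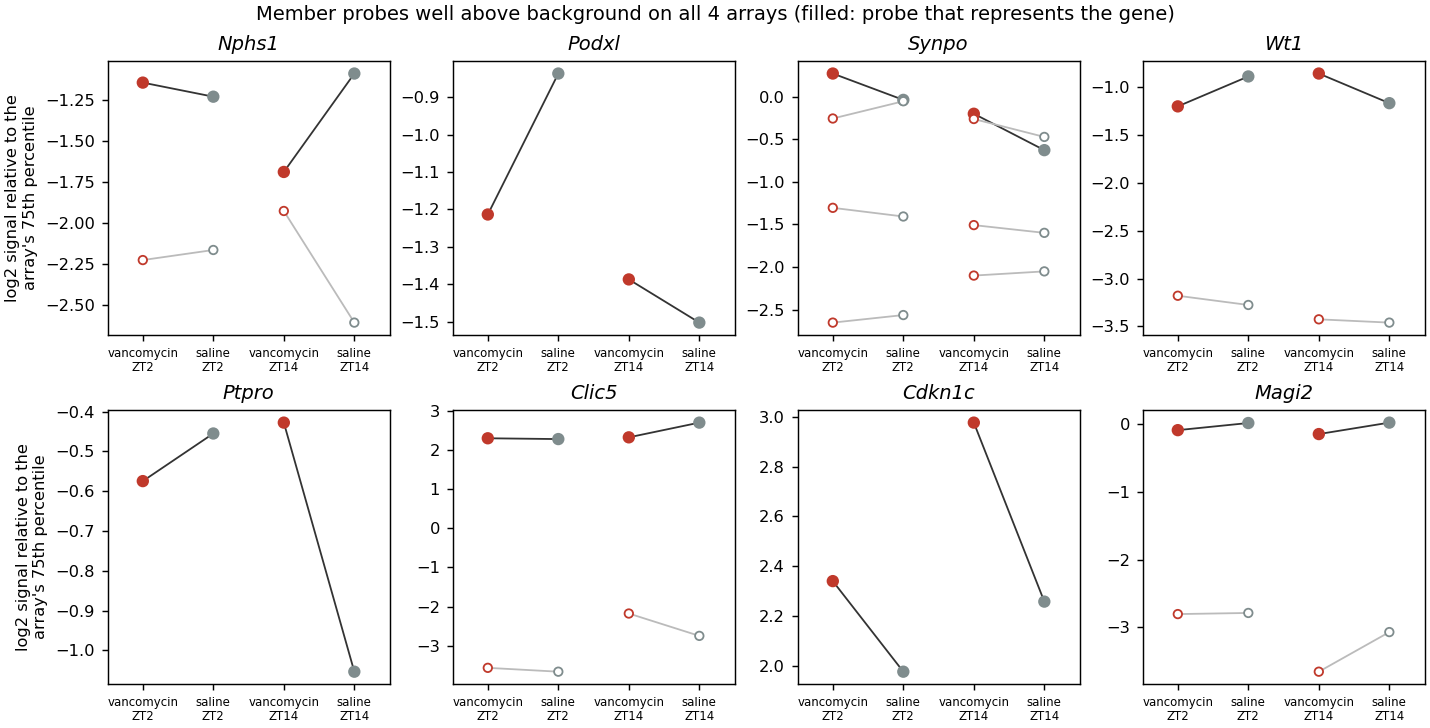
Log2 signal relative to each array's 75th percentile (vertical axis, scaled separately in each panel) in the 4 samples, vancomycin in red and saline in grey, for the 15 member probes well above background on all 4 arrays. Filled points are the probe that represents the gene, open points its other probes, and lines join the 2 arrays of an injection time. Cdkn1c and Synpo stand higher with vancomycin at both times on their filled points, and the 2 Nphs1 probes run in opposite directions at ZT14.

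Nphs1 gave no single direction with vancomycin. Its first probe had a scaled signal of 45.3% with vancomycin and 42.7% with saline at ZT2, and 31.1% with vancomycin and 47.1% with saline at ZT14. The vancomycin kidney at ZT14 was the low sample, with a difference of -0.60, while at ZT2 the difference was 0.09. The second probe, dimmer and printed above, had 21.4% with vancomycin and 22.3% with saline at ZT2, and 26.3% with vancomycin and 16.4% with saline at ZT14. On this probe the vancomycin kidney at ZT14 was the high sample, with a difference of 0.68. Both probes carry the same transcript accession and were well above background on all 4 arrays. With the mean over both probes the ZT14 difference of Nphs1 was 0.04.

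Magi2 encodes a membrane-associated scaffold that binds nephrin, and on its brightest probe the samples lay close together. Its scaled signal was 94.0% with vancomycin and 101.1% with saline at ZT2, and 90.3% with vancomycin and 101.5% with saline at ZT14. Both vancomycin kidneys were lower than their saline kidney, by -0.11 and -0.17. A second, dimmer Magi2 probe had 14.3% with vancomycin and 14.5% with saline at ZT2, and 7.93% with vancomycin and 11.9% with saline at ZT14, a difference of -0.59. Of the other 4 Magi2 probes, 3 were well above background on no array and 1 on 1 array. With the mean over the 3 kept probes, that last one included, Magi2 had -0.32 at ZT2 and -0.38 at ZT14.

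Synpo encodes synaptopodin, which binds actin in the foot process, and its brightest probe lies at chr18:60765551-60765610 on the minus strand. Its scaled signal was 121% with vancomycin and 97.5% with saline at ZT2, and 87.1% with vancomycin and 64.7% with saline at ZT14. The vancomycin kidneys were higher at both times, by 0.31 and 0.43. Its 3 other probes differed by -0.20, 0.10 and -0.09 at ZT2 and by 0.21, -0.05 and 0.09 at ZT14. The 4 Synpo probes therefore did not share a sign at either time, and their mean was 0.03 at ZT2 and 0.17 at ZT14.

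Podxl encodes podocalyxin, the charged glycoprotein of the podocyte surface, which endothelial cells carry too. Its scaled signal was 43.1% with vancomycin and 56.0% with saline at ZT2, and 38.2% with vancomycin and 35.3% with saline at ZT14. The saline kidney at ZT2 was the high sample, and the vancomycin difference was -0.38 at ZT2 and 0.12 at ZT14. Its second probe was not well above background on any array. In the list of 15 glomerular endothelial genes, 12 were lower with vancomycin at both times, and the list's median was -0.34 at ZT2 and -0.28 at ZT14. Between 14 and 15 of the listed genes were well above background on each array. The summed scaled signal of this list was 2902% with vancomycin and 3640% with saline at ZT2, and 3687% with vancomycin and 4677% with saline at ZT14. Its part in the Podxl values was not tested.

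Ptpro encodes a receptor tyrosine phosphatase of the podocyte surface. Its scaled signal was 67.2% with vancomycin and 73.0% with saline at ZT2, and 74.4% with vancomycin and 48.2% with saline at ZT14. The saline kidney at ZT14 was the low sample and the other 3 lay close together. The vancomycin difference was -0.12 at ZT2 and 0.63 at ZT14. Its other probe was not well above background on any array.

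Clic5 encodes a chloride intracellular channel protein that lies with ezrin and podocalyxin in the foot process. The first probe had 493% with vancomycin and 486% with saline at ZT2, and 501% with vancomycin and 650% with saline at ZT14. The saline kidney at ZT14 was the high sample, and the vancomycin difference was 0.02 at ZT2 and -0.38 at ZT14. On the second, dimmer probe it was 8.44% with vancomycin and 7.88% with saline at ZT2, and 22.1% with vancomycin and 14.9% with saline at ZT14. This probe, which answers to a cDNA accession of its own, thus gave 0.57 at ZT14, opposite to the first.

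Wt1 encodes a transcription factor of podocytes that also marks mesothelium, the cell layer on organ surfaces. Its scaled signal was 43.6% with vancomycin and 54.1% with saline at ZT2, and 55.3% with vancomycin and 44.6% with saline at ZT14. The vancomycin kidney was low at ZT2 and high at ZT14, by -0.31 and 0.31. The 5 measured mesothelial genes of 7 listed, all 5 well above background on the 4 arrays, had a median of -0.76 at ZT2 and of 0.85 at ZT14. The summed scaled signal of the mesothelial list was 781% with vancomycin and 933% with saline at ZT2, and 658% with vancomycin and 512% with saline at ZT14. The median of this list had the sign of Wt1 in both pairs, and the part of mesothelium in the Wt1 values was not tested. A second, dimmer Wt1 probe gave 0.10 and 0.03.

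Cdkn1c encodes a cyclin-dependent kinase inhibitor of non-dividing podocytes and is also known from the adrenal cortex. It had the largest vancomycin difference of the 8 genes at ZT14. Its scaled signal was 506% with vancomycin and 394% with saline at ZT2, and 787% with vancomycin and 478% with saline at ZT14. Both vancomycin kidneys were higher than both saline kidneys, by 0.36 at ZT2 and 0.72 at ZT14. Of the measured adrenal genes, 11 were higher with vancomycin at both times, while Th had 0.78 at ZT2 and -0.06 at ZT14. Of 12 measured adrenal genes of 14 listed, 12 were well above background with vancomycin and 7 with saline at ZT2, and 11 with vancomycin and 6 with saline at ZT14. Their summed scaled signal was 814% with vancomycin and 88.0% with saline at ZT2, and 166% with vancomycin and 97.4% with saline at ZT14. The median difference of the adrenal list, dim genes included, was 3.23 at ZT2 and 1.22 at ZT14, where Cdkn1c had 0.36 and 0.72. The part of adrenal RNA in the Cdkn1c values was not tested.

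Over both times, limma was fitted to all 24640 genes with treatment and injection time as terms. For vancomycin 0 of the 8 members passed an adjusted p of 0.05, and 0 of 24640 genes did, a background of 0%. At an unadjusted p under 0.05 there were 0 members, against 2107 genes, 8.55%. Cdkn1c came closest, at 0.54 ± 0.17 (SE, n = 2 arrays per treatment) with a limma adjusted p of 0.593, followed by Synpo at 0.37 ± 0.14 with 0.623. The fit has 1 residual degree of freedom and 1.86 from the prior, so its p-values measure how far the vancomycin differences at ZT14 and ZT2 lay apart, and not a spread between animals.

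**Figure D2:**
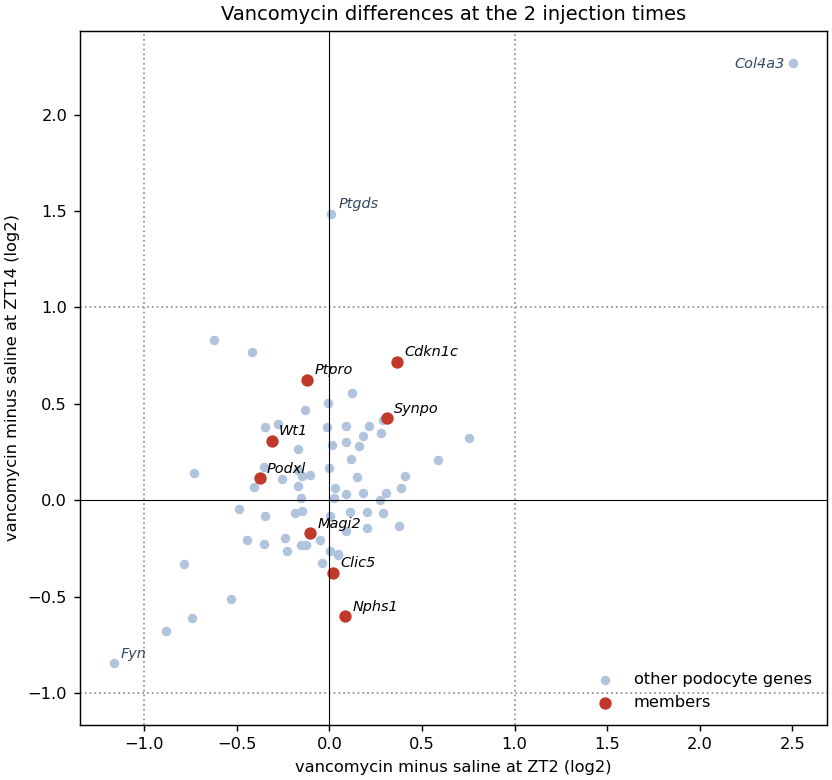
Vancomycin minus saline in log2 units at ZT2 (horizontal axis) and at ZT14 (vertical axis) for the 8 members (red) and for other podocyte genes well above background on all 4 arrays (blue). Dotted lines mark 2-fold. The members lie inside the dotted square, and Col4a3 at 2.50 and 2.27 lies outside it in both directions.

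Injection time was compared within each treatment. With vancomycin 0 of 8 members differed by 2-fold between ZT14 and ZT2, where 11.1% of genes did, and with saline 0 of 8, where 10.3% did. The members' median was -0.02 with vancomycin and -0.14 with saline, against 0.03 and 0.02 over all genes. Podxl was lower at ZT14 than at ZT2, by -0.17 with vancomycin and -0.67 with saline. Synpo was lower at ZT14 by -0.47 with vancomycin and -0.59 with saline, and Cdkn1c was higher by 0.64 and 0.28. Nphs1 had -0.55 with vancomycin and 0.14 with saline, Ptpro 0.15 and -0.60, Wt1 0.34 and -0.28, and Magi2 -0.06 and 0.01. On their brightest probe these genes therefore kept no sign across treatments. With the mean over probes Nphs1 had -0.12 with vancomycin and -0.15 with saline, Synpo had -0.03 and -0.17, and Clic5 had 0.71 and 0.67 in place of 0.02 and 0.42. The time and the vancomycin differences are made of the same 4 arrays and are not independent of each other.

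By limma 0 of the 8 members passed an adjusted p of 0.05 for ZT14 against ZT2, as did 0 of 24640 genes, 0%. At an unadjusted p under 0.05 there was 1 member, Synpo, against 6709 genes, 27.2%. Synpo had -0.53 ± 0.14 (SE, n = 2 arrays per time) with a limma adjusted p of 0.159. With the mean over probes this was -0.10 ± 0.15 with a limma adjusted p of 0.698. Of the 4 Synpo probes, 3 were lower at ZT14 and 1 was higher, with vancomycin and with saline. The second brightest had -0.01 with vancomycin and -0.42 with saline, and the dimmer ones are given below. The Synpo value therefore depends on how its probes are combined.

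The largest time differences of member probes came from dimmer probes. The second Clic5 probe was higher at ZT14 than at ZT2, by 1.39 with vancomycin and 0.92 with saline, while the first had 0.02 and 0.42. The second Magi2 probe was lower at ZT14, by -0.85 with vancomycin and -0.28 with saline. For Synpo, the probe at chr18:60763806-60763865 was higher at ZT14 by 1.14 with vancomycin and 0.96 with saline. The Synpo probe at chr18:60759861-60759920 was lower by -0.80 and -0.64, although both carry the same transcript accession. In base composition these 2 probes differ, with 66.7% GC in the first and 53.3% in the second. Among 31383 probes well above background on all 4 arrays, the ZT14 minus ZT2 difference was larger at higher GC content, with a Pearson's r of 0.21 with vancomycin and 0.20 with saline across probes. The 259 probes with at least 65% GC had a median of 0.45 with either treatment, and the 10286 probes from 35% to under 40% GC had -0.14 with vancomycin and -0.12 with saline. From 50% to under 55%, where the second of these Synpo probes lies, the median over 2553 probes was 0.19 with vancomycin and 0.16 with saline, opposite in sign to that probe. The part of GC content in the Synpo values was not tested. The second Clic5 probe has 45% GC, where the median over 8334 probes from 45% to under 50% was 0.07 with vancomycin and 0.05 with saline.

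**Figure D3:**
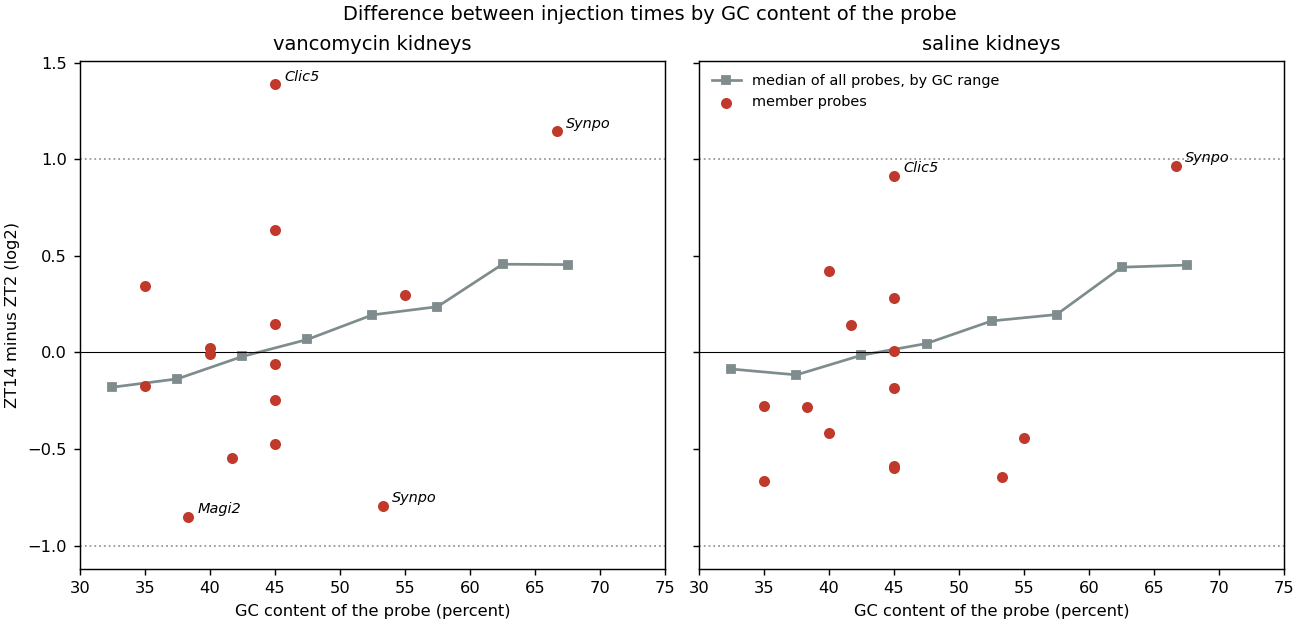
ZT14 minus ZT2 in log2 units (vertical axis) against the GC content of the probe in percent (horizontal axis) for the 15 member probes (red), in vancomycin kidneys on the left and saline kidneys on the right. Grey squares are medians over all probes well above background on all 4 arrays, by GC range, and they climb to 0.45 at the right, where 1 Synpo probe stands at 1.14 and 0.96.

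Other genes known in podocytes came from 5 lists with 73 entries, of which 70 were measured. Some were far brighter than the members. With vancomycin at ZT2, Arhgdia had 4796% and Mme 2081%, against 45.3% for Nphs1. How much of their signal in whole kidney came from podocytes was not tested, so the counts and medians below are not particular to podocytes. Of the 70, 24 were higher at both times with vancomycin and 17 lower, against 29.9% higher and 27.3% lower among genes detected on the 4 arrays. The medians were -0.01 at ZT2 and 0.07 at ZT14. Past 2-fold lay 2 of 68 genes at ZT2, Col4a3 and Fyn, where 4.5% of all genes did, and 2 of 70 at ZT14, Col4a3 and Ptgds, where 3.55% did. By limma 0 of the 70 passed for vancomycin and 0 for injection time. Ptgds, and Col4a5 further on, were chosen for naming after their values were seen.

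Among 14 measured slit diaphragm partners, with vancomycin 7 were higher at both times and 2 lower. Cd2ap, an adaptor between nephrin and actin, had 0.03 at ZT2 and 0.06 at ZT14 with vancomycin. Fat1, a large cadherin, had -0.53 and -0.51. Fyn, a kinase that phosphorylates nephrin and is also expressed in T cells, had -1.17 and -0.84. In the same samples, 5 of 7 measured leukocyte genes of 8 listed were lower at both times and 1 was higher, against the 27.3% and 29.9% above. Of the lower ones, Cd3d, a T cell gene, had -1.04 and -0.94, and Cd79b -1.70 and -1.14. The higher one was Itgam, at 0.05 and 0.15. The summed scaled signal of that list was 2366% with vancomycin and 2695% with saline at ZT2. At ZT14 it was 3636% with vancomycin and 3537% with saline. Much of this sum came from Itgam, with 1610% with vancomycin and 1554% with saline at ZT2, and 2648% and 2383% at ZT14. The part of leukocytes in the Fyn values was not tested.

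Of 20 measured cytoskeleton and foot process genes, 7 were higher at both times with vancomycin and 5 lower, and 0 passed 2-fold. Robo2, a guidance receptor, had 0.75 at ZT2 and 0.32 at ZT14, and Srgap1, a GTPase-activating protein of that pathway, 0.28 and 0.35. Ezr, which encodes ezrin, had 0.38 and 0.06. Of 9 podocyte transcription factors, 4 were higher and 1 lower at both times. Foxc1 had 0.59 at ZT2 and 0.21 at ZT14, Dach1 0.27 and 0.00, and Tcf21 -0.28 and 0.39. Of 16 surface and secreted products, 5 were higher and 4 lower at both times. Vegfa, the growth factor that podocytes supply to glomerular endothelium, had 0.29 at ZT2 and 0.42 at ZT14. Angptl2 had -0.88 and -0.68, and Ptgds, a prostaglandin D synthase gene, had 0.01 and 1.49.

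The glomerular basement membrane list held the only gene of these 5 lists past 2-fold at both times. Col4a3 encodes a chain of the collagen IV network that podocytes lay down. It had a scaled signal of 172% with vancomycin and 30.4% with saline at ZT2, and 218% with vancomycin and 45.3% with saline at ZT14. Both vancomycin kidneys were far above both saline kidneys, by 2.50 and 2.27, where 0.178% of genes were 2-fold higher at both times. By limma the change was 2.38 ± 0.15 (SE, n = 2 arrays per treatment), with an adjusted p of 0.520. It rests on 1 probe, since the gene's second probe was well above background on no array. Col4a4, the neighbouring gene that encodes a partner chain, had differences of 0.05 at ZT2 and -0.28 at ZT14 on one probe and of -0.03 and -0.06 on another. Col4a5, the third chain, had -0.17 and 0.07, and Nid1, a linker of the membrane, -0.74 and -0.61. Over the 11 genes of this list the medians were -0.12 at ZT2 and -0.20 at ZT14.

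The lists of other glomerular cells are given for comparison. Of 12 mesangial genes, 8 were lower at both times and 1 was higher, with a list median of -0.50 at ZT2 and of -0.41 at ZT14. For the endothelial list the counts were 12 lower and 1 higher of 15, and for the 8 members 1 lower and 2 higher. Among genes detected on the 4 arrays, 27.3% were lower and 29.9% higher. Of 8 parietal epithelial genes 3 were lower and 2 higher. The difference between the lists was not tested. The median of the 8 parietal epithelial genes was -0.08 at ZT2 and 0.06 at ZT14.

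**Figure D4:**
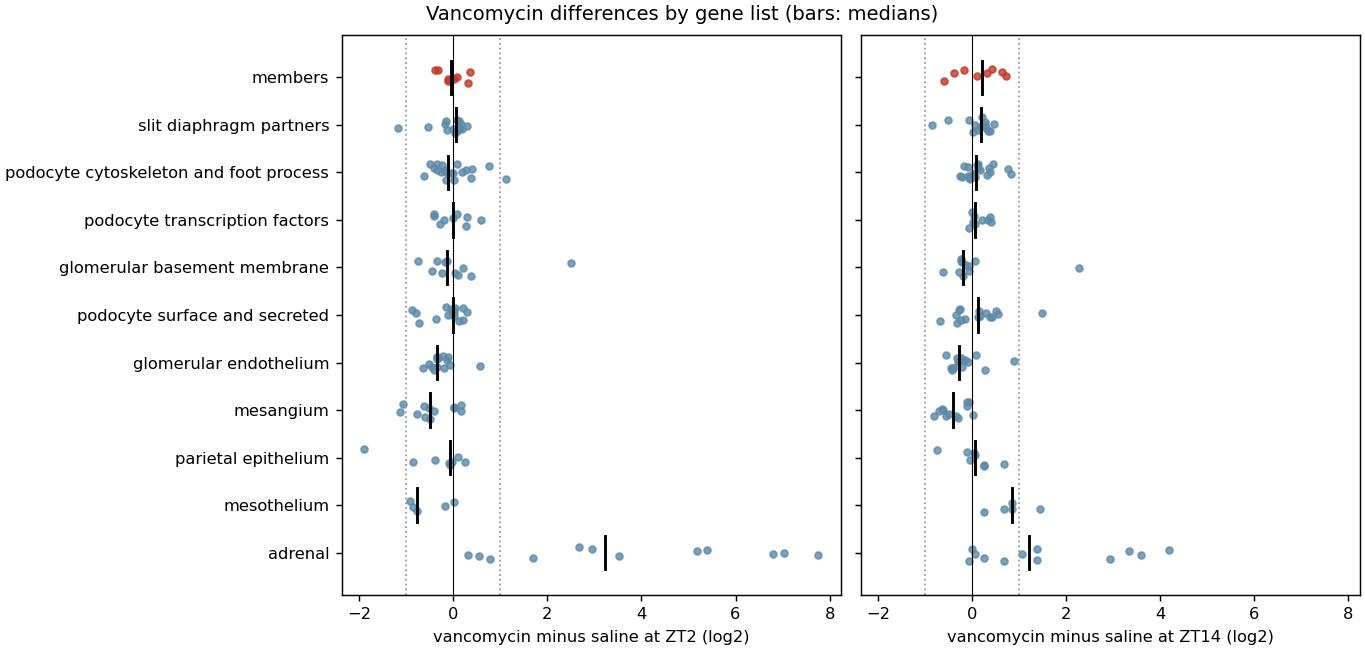
Vancomycin minus saline in log2 units at ZT2 (left) and at ZT14 (right), with a point for each gene of a list and a black bar at the list's median. Points include genes not well above background on an array, and dotted lines mark 2-fold. The members (red) lie around 0, the endothelial and mesangial medians lie between -0.50 and -0.28, and the adrenal genes lie far to the right at ZT2.

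By root mean square distance over the 4 arrays, the genes with the profile most like the mean of the members were Btf3l4, at 0.006 log2 units, and 4 entries without an ordinary gene symbol. Of 20753 genes measured, 2367 lay within 0.1 of that profile, so likeness to it sets few genes apart. In RefSeq promoters of GRCm38.p6, which run from 250 bases before to 50 after a gene's start, 5 promoters of 4 members were found, 2 of them for Magi2. CACGTG, the E-box of clock factors, was in 0 of these 5, against 7.15% of 32851 promoters, on either strand. GCGTGGG, a core shared by WT1 and EGR factors, was in 1, of Magi2, against 5.04%, and TGCTGAC, part of a MAF binding site, in 0, against 4.67%.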

How the data were processed

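Total RNA of kidney was labelled with Cy3 and hybridized to Agilent arrays, 1 per sample. Per the file headers, the deposited intensities came from Agilent Feature Extraction 10.7.1.1, with background subtracted, trends removed and no normalization between arrays, whereas the submitters' processing notes name 9.5.1.1. Other columns deposited per spot are flags of 0 or 1. The authors' table of intensities has the same median, 35.2, in its 4 columns, by a step not given in the sources used here, and served as an alternative. Here outlier spots were dropped and the log2 of the processed signal was set relative to the 75th percentile of its array. Probes entered when 50% or more of their spots passed the flag for signal well above background on 1 array or more. The brightest kept probe represented a gene. limma 3.58.1 in R 4.3.3 fitted treatment and injection time, with Benjamini-Hochberg adjustment over all genes, and was tested on simulated data. Of the 21 member probes, 12 were matched by accession to RefSeq. Arrays have no read depth, and their number limits the precision. Where a gene outside the members is named, it was among the brightest of its list or had the largest vancomycin difference shared by both times, unless stated, and some such genes are not reported here. The members and lists were chosen with earlier results of these data known.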

Additional observations from a re-analysis of the deposited data

Results flagged for a closer look

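For 5 of the 8 members the vancomycin difference had opposite signs at ZT14 and ZT2, each time from 1 array per group, when a gene is represented by its brightest probe. The difference between the times was not tested, since it leaves 0 residual degrees of freedom. The difference at ZT14 less that at ZT2 was -0.69 for Nphs1, 0.49 for Podxl, 0.62 for Wt1, 0.75 for Ptpro and -0.40 for Clic5, in log2 units. For Nphs1 and Clic5 the ZT2 difference was 0.09 and 0.02, and that of Clic5 lay under the technical spread of 0.063 between repeated spots. Opposite signs were seen in 62.5% of the members, against 42.8% of genes well above background on all 4 arrays. With the mean over probes this was 37.5% of the members, 3 of 8, against 42.8% of genes, since Nphs1 and Clic5 were then higher at both times.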

How the results depend on the processing

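No paired analysis was possible because groups of 1 sample share fewer than 2 replicate numbers, though the limma fit compares vancomycin with saline within injection time, which is the same split as slide. No array could be left out of a group of 1. Over the 8 other settings run on the values, the count of members past 2-fold stayed 0 in all 4 comparisons, and the largest difference of a member was 0.72. The limma count stayed 0 for vancomycin and for injection time in these settings, without the other factor in the fit, and when the prior was robust and followed intensity. The members' median moved past the spread between spots in 2 cases. For ZT14 minus ZT2 with vancomycin it was -0.094 with centring on the median, and for vancomycin at ZT14 it was 0.14 with the mean over probes. Of 256 single values under other settings, 220 lay within 0.063 of the first value and 36 moved further. The count of 220 holds values that could not move. A stricter filter on dim probes, or none, left the same brightest probe for each member and so repeated the first values. With the mean over probes, Podxl, Ptpro and Cdkn1c had only 1 kept probe and also stayed the same. In 8 the sign changed, and in 2 of these the first value was over 0.2 in size. Both came with the mean over probes at ZT14, where Nphs1 had 0.04 in place of -0.60 and Clic5 0.10 in place of -0.38. The count of members with opposite vancomycin signs was 5 in each setting except the mean over probes, where it was 3. Signal over background limits the dim second probes.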

Other observations

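Genes known to change in injured podocytes had no shared direction with vancomycin. The median of the 8 listed genes was -0.87 at ZT2 and 0.03 at ZT14, and 3 were lower and 2 higher at both times. Ctsl, which encodes cathepsin L, had 0.24 at ZT2 and -0.64 at ZT14. Vim, which encodes vimentin, had -0.87 and -0.04, and Jag1, a Notch ligand gene, 0.18 and 0.10. Des, which encodes desmin, had -0.88 and -0.57, Itgb3, an integrin gene, -0.95 and -0.28, and Cd80, a costimulatory molecule gene, 0.49 and 0.16. Vimentin and desmin are also expressed in stromal and smooth muscle cells, whose 9 listed genes had a median of -1.45 at ZT2 and of -0.41 at ZT14. The part of those cells in these values was not tested.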
